A study of Mus musculus with 6 samples.

Results

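Mediator and the TBP-associated factors were followed in 6 RNA-seq libraries of fetal liver haematopoietic stem cells (HSCs), the cells from which all blood lineages arise. All gene symbols of the form Med or Taf followed by a number and at most 1 letter were taken, apart from Taf3, and kept if they had at least 10 counts in at least 3 of the 6 libraries. Of 38926 gene symbols in the deposited counts, 52 had such a name and 50 passed the minimum, 29 of them Mediator (Med) genes and 21 TAF genes. Med10, a middle subunit, and Taf7l, a paralog of Taf7, had 0 counts in all 6 libraries. In gene models of GENCODE vM21, 4168 of the 4491 exon bases of Med10 lie under Gm26819, a gene on the opposite strand. The name rule is wider than the TFIID complex: 14 of the 21 TAF genes encode TFIID subunits or their paralogs. Taf5l and Taf6l belong to the SAGA coactivator, Taf1a, Taf1b, Taf1c and Taf1d to SL1, the selectivity factor of RNA polymerase I, and Taf15 to the FET family of RNA-binding proteins.

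The study asked what loss of Dpy30, which is part of the SET1/MLL histone methyltransferases (their mark is on lysine 4 of histone H3), does to gene expression in these cells. HSCs were sorted by surface markers from E14.5 embryos. The 3 control samples carried Vav-Cre; Dpy30F/+ and the 3 knockout (KO) samples Vav-Cre; Dpy30F/-, and each of 3 litters gave a sample of either genotype. Both groups therefore carried Vav-Cre, a recombinase transgene active in blood-forming cells and in part of the endothelium, and 1 floxed Dpy30 allele, so that cells in which Cre had acted had 1 intact allele in the controls and none in the KO. Whether a sample was 1 embryo or a pool is not given in the sources used here.

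Gene counts came to 35559444 to 43394700 in controls and 31897737 to 36679347 in KO libraries, of which mitochondrial genes took 54.4% to 67.7% and 49.2% to 55.7%. Values below are CPM, counts scaled to a library total of 1000000, after TMM scaling, a correction for composition between libraries. Dpy30 was at 26.8 ± 4.20 CPM in controls and 9.18 ± 3.999 CPM in KO libraries (SD, n = 3 each), a log2 fold change of -1.55 with every KO library under every control, and did not pass edgeR's quasi-likelihood test across all genes (adjusted p = 0.672). The KO libraries were less alike than the controls. Correlations of log2 CPM were 0.856 to 0.88 among controls and 0.72 to 0.773 among KO libraries. All 11 HSC markers listed were detected, and their summed level was 642 to 680 CPM in controls and 815, 961 and 279 CPM in KO 1 to 3. The 4 endothelial markers summed to 622 to 1000 CPM in controls and to 999, 76.3 and 809 CPM in KO 1 to 3. Macrophage and monocyte markers (7 of 8 in the files) summed to 261 to 530 CPM in controls and 692, 306 and 1370 CPM in KO libraries. Of these 7, Csf1r, C1qb, Lyz2 and Cd68 were above every control in every KO library, while Mrc1 was at 26.4 CPM in KO 2 and between 179.5 and 366 CPM in the other libraries. The 4 megakaryocyte markers summed to 40.3 to 53.3 CPM in controls and 87.5 to 137 CPM in KO libraries. Of these, Pf4 and Gp1ba were above every control in every KO library, while the groups overlapped for Itga2b and Gp9. The 3 mast cell markers summed to 0.0691 to 5.48 CPM in controls and 6.42 to 17.9 CPM in KO libraries, but only Cpa3 was separated. Mcpt8 was at 0 in KO 1 and KO 3 and at 2.34 CPM in KO 2, beside 0 to 1.04 CPM in controls. Ms4a2 was at 0 in every KO library and at 0.722 CPM in control 2. The 7 erythroid markers summed to 657 to 915 CPM in controls and 316, 451 and 960 CPM in KO 1 to 3. Of these 7, only Tfrc was separated, under every control in every KO library. Hepatocyte and B cell markers summed to at most 21.9 and 1.97 CPM in any library. Both T cell markers, Cd3e and Cd3g, were at 0 in every library. The part of these differences in the results below was not tested, and in such bulk libraries fewer cells of a type cannot be told apart from less RNA per cell.

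Mediator is a large coactivator that joins DNA-bound transcription factors to RNA polymerase II. Its head and middle modules contact the polymerase, its tail binds activators, Med14 runs through all of these as a scaffold, and a dissociable kinase module built around CDK8 or CDK19 controls its access to the polymerase. TFIID, made of the TATA-binding protein TBP and its TAFs, recognises core promoters and seeds the preinitiation complex. Several TAFs meet in histone-fold pairs, among them Taf6 with Taf9, Taf4 with Taf12, Taf8 with Taf10 and Taf11 with Taf13. The subunit left out of the set, Taf3, carries a PHD finger that binds trimethylated lysine 4 of histone H3.

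No member passed an adjusted p of 0.05 in edgeR's test, where 0% of the 13646 genes tested did. DESeq2 called 1.01% of all genes and no member. At an unadjusted p under 0.05 edgeR gave 1 of the 50 members, Med20, against 6.51% of all genes, and DESeq2 gave 3 of 50, Med20, Med22 and Taf11, against 9.23% of all genes. With litter as a block edgeR gave 0 of 50 at that level, beside 4.54% of all genes. The 3 KO libraries lay wholly above or wholly below the 3 controls for 4 of 50 members, 8% beside 14.1% of all genes. Med20, Med22 and Taf13 were those below (7.74% of all genes) and Taf1 the one above (6.39% of all genes). With a single library left out, 6 to 17 members were separated in this way beside 21.1% to 30.7% of all genes. The highest number, 17 of 50, came without KO 2, where the share of all genes was 28.9%; the number was 8 without control 1 or control 3, 10 without KO 1 and 11 without KO 3. The KO value exceeded that of its own litter's control in all 3 litters for 5 members (12.3% of all genes did) and was under it in all 3 for 6 members (15.9% of all genes).

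**Figure D1:**
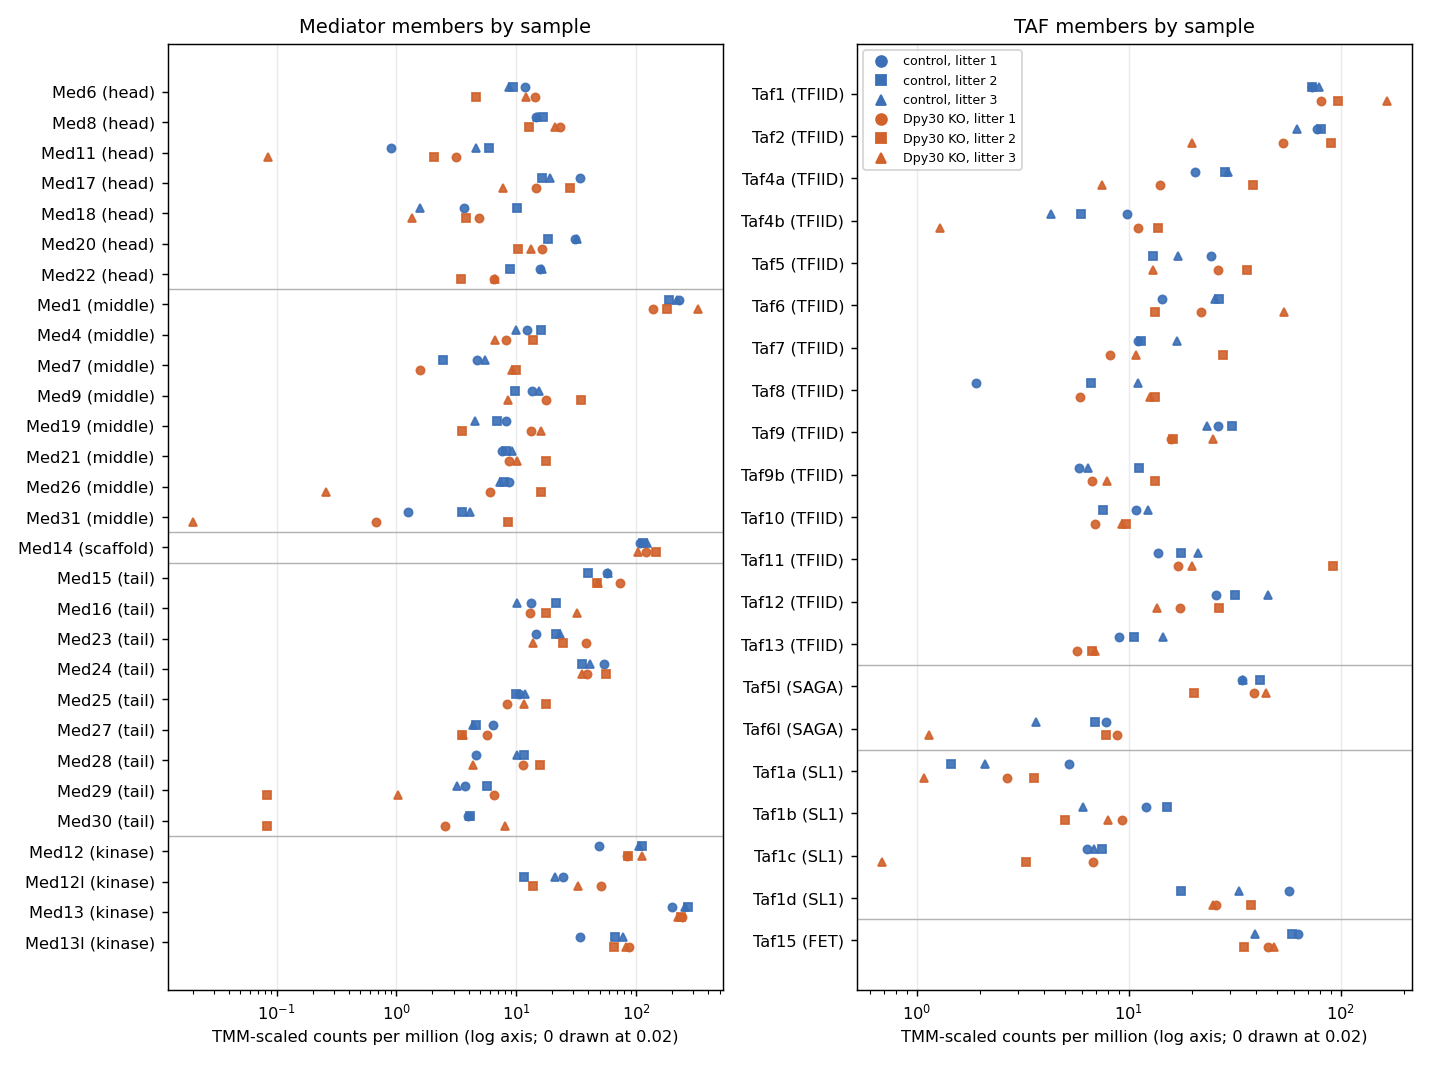
CPM of each member (log axis, a count of 0 drawn at 0.02) in each library, with Mediator genes by module on the left and TAF genes by complex on the right; blue marks controls, orange marks KO, and the shape gives the litter. Blue and orange are apart in 4 of 50 rows, and the far-left points are KO 2 for Med29 and Med30 and KO 3 for Med11, Med26 and Med31.

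Fold changes of the Mediator genes, KO over control, ran from -1.31 to 0.77 on the log2 scale with a median of 0.07. Of the 29, 18 were positive and 11 negative. The 21 TAF genes ran from -0.94 to 1.29 with a median of -0.25, 8 positive and 13 negative, and all genes tested had a median of 0.01 with 50.8% positive. A log2 fold change over 1 in size was estimated for 4 of 50 members (Med11, Med20, Med22 and Taf11) beside 26.4% of all genes. The median size of the log2 fold change was 0.39 over the members and 0.52 over all genes.

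**Figure D2:**
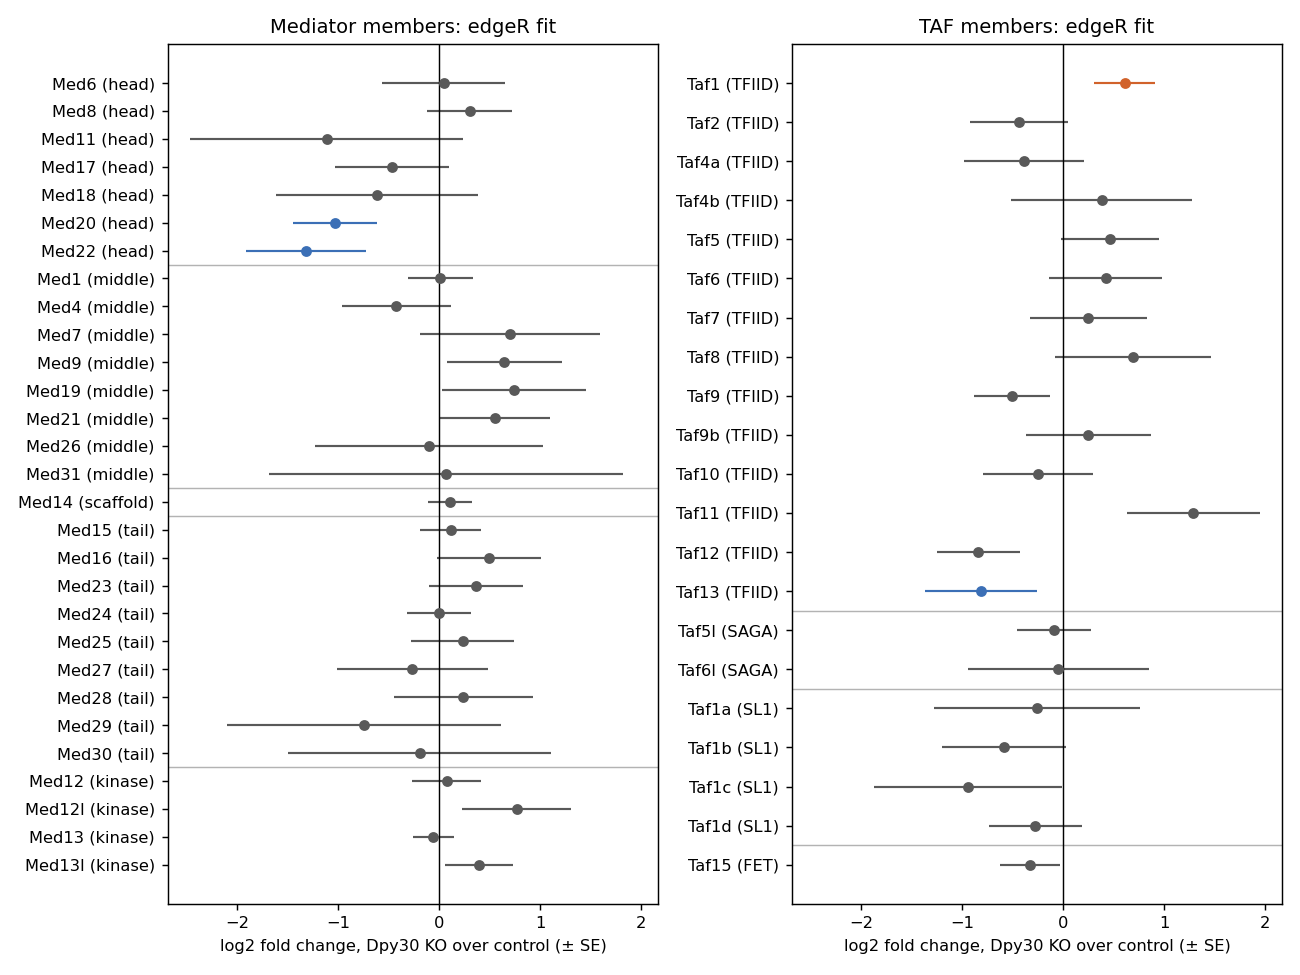
Log2 fold change of each member, KO over control, with its standard error (SE) from the edgeR fit; blue marks the 3 members whose KO libraries all lay below the controls, orange the 1 member whose KO libraries all lay above, and grey the rest. The head module sits left of 0 in 5 of 7 rows and the 4 SL1 genes in 4 of 4.

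The head module held the Mediator genes with the most negative estimates. Its 7 members had a median log2 fold change of -0.61, with 5 negative. The median stayed between -0.99 and -0.23 with any 1 library left out. Within litters 1, 2 and 3 the median log2 difference, KO minus control, was 0.26, -1.04 and -1.265. The module median was thus lower in KO in litters 2 and 3 but not in litter 1. Med20, which sits with Med18 on the movable jaw of the head, had 31.1, 18.6 and 32.1 CPM in controls 1 to 3 and 16.5, 10.3 and 13.3 CPM in KO 1 to 3. The highest KO library was under the lowest control. The log2 fold change was -1.03 (SE 0.42), which did not pass adjustment over all genes (edgeR adjusted p = 0.753; DESeq2 adjusted p = 0.420). Exons of the pseudogene Kpna2-ps and of Gm20517 cover 28.4% of the exon bases of Med20, so part of its counts could belong to them or be lost to them.

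Med22, which pairs with Med11 in the head, had 15.9, 8.85 and 16.4 CPM in controls and 6.47, 3.44 and 6.63 CPM in KO libraries. All 3 KO values were lower than all 3 controls, and the log2 differences within litters 1, 2 and 3 were nearly equal at -1.29, -1.35 and -1.30. The log2 fold change over the groups was -1.31 (SE 0.59; edgeR adjusted p = 0.775). Med11 itself had 0.898, 5.96 and 4.65 CPM in controls and 3.17, 2.07 and 0.0857 CPM in KO libraries, overlapping groups in which control 1 and KO 3 were both low. The remaining head genes, Med6, Med8, Med17 and Med18, had log2 fold changes from -0.61 to 0.31 with SEs of 0.42 to 1.00. Summed per kilobase of exon, the head genes came to 32.4, 31.7 and 29.7 CPM in controls and 30.5, 20.3 and 21.7 CPM in KO libraries, so that KO 1 lay within the controls and KO 2 and KO 3 under them.

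The sequence upstream of Med20 and Med22 is shown because these are the Mediator genes whose groups did not overlap. Both start beside a divergent protein-coding gene. Med20 lies 90 bases from the start of Bysl, a ribosome biogenesis factor, and Med22 lies 87 bases from that of Rpl7a, a ribosomal protein. The bases between the starts are chr17:47611493-47611581 on the plus strand and chr2:26910678-26910763 on the minus strand, from the RefSeq promoter table of GRCm38.p6, 5′ to 3′, with matches to the searched motifs in capitals (GATGGCG, the YY1 motif, in Med20 and GGGCGG, the SP1 motif, in Med22).
Med20: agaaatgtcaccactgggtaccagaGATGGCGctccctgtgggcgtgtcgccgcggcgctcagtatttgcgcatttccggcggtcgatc
Med22: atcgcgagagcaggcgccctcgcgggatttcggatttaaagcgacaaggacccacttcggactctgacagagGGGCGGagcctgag
The partners' own log2 fold changes were 0.52 for Bysl and -0.68 for Rpl7a, and in both the groups overlapped. A divergent protein-coding neighbour within 1000 bases was found for 8 of 50 members (16%) and for 10.4% of the 11744 tested protein-coding genes.

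The middle module was estimated higher in KO for 6 of its 8 members (median 0.31), with no member past an unadjusted p of 0.05. Med1, which carries the motifs that bind nuclear receptors, had 230, 190 and 221 CPM in controls and 139, 180 and 329 CPM in KO libraries. Its KO values straddled the controls, KO 1 and KO 2 below all of them and KO 3 above all of them. The log2 fold change was 0.01 (SE 0.32) and -0.41 without KO 3. Med9 had 13.5, 9.84 and 15.4 CPM in controls and 17.8, 34.4 and 8.54 CPM in KO libraries. Its estimate of 0.65 (SE 0.57) rested on KO 2, since the log2 fold change without that library was 0.03. Med19, which lies in the hook of the middle module, had 8.29, 6.95 and 4.56 CPM against 13.4, 3.53 and 16.2 CPM, with KO 2 under all controls and the other KO libraries over them; its estimate of 0.74 (SE 0.72) became 0.37 without KO 3 and 1.17 without KO 2. Med21, the partner of Med7 in the hinge of the middle module, had 7.60, 8.24 and 9.16 CPM against 8.71, 17.8 and 10.2 CPM. The KO value was the higher in each litter, but KO 1 fell within the controls; the log2 fold change was 0.55 (SE 0.55) and 0.18 without KO 2.

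Med14 was among the steadiest members. It had 107, 114 and 124 CPM in controls and 122, 146 and 103 CPM in KO libraries, with a log2 fold change of 0.11 (SE 0.22). In the tail, 6 of 9 members were positive, with a median of 0.12 and none past an unadjusted p of 0.05. Med16 had 13.2, 21.6 and 10.1 CPM in controls and 13.2, 17.7 and 32.3 CPM in KO libraries. Only KO 3 exceeded the controls, and the estimate of 0.49 (SE 0.51) became 0.06 without it. The other tail genes had log2 fold changes from -0.74 for Med29 to 0.37 for Med23, and the tail sum per kilobase was 28.7 ± 0.935 CPM in controls and 29.8 ± 3.13 CPM in KO libraries (SD, n = 3 each).

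Of the 4 kinase module genes, Med12 and Med13 had estimates near 0 and their paralogs Med12l and Med13l had positive estimates. Med12, which activates the kinase through cyclin C, had 49.1, 113 and 106 CPM in controls and 84.1, 85.8 and 112 CPM in KO libraries. Control 1 was the low value, and the log2 fold change was 0.08 (SE 0.34). Med13, which links the kinase module to the core, had 199, 273 and 259 CPM against 243, 238 and 223 CPM, all 3 KO values inside the control range, and a log2 fold change of -0.05 (SE 0.20), the smallest SE of any member. Med12l had 24.8, 11.5 and 21.2 CPM against 51.3, 13.9 and 32.8 CPM. KO was the higher within each litter, while litter 2 was low in both genotypes, and the log2 estimate was 0.77 (SE 0.54; edgeR adjusted p = 0.863) and 0.28 without KO 1. Med13l had 34.2, 66.5 and 77.6 CPM against 87.4, 65.5 and 81.7 CPM; control 1 alone lay well under the rest, and the log2 fold change of 0.40 (SE 0.34) became 0.12 without it. The kinases and cyclin of the module, Cdk8, Cdk19 and Ccnc, had log2 fold changes of -0.34 (SE 0.45), 0.30 (SE 0.30) and 0.38 (SE 0.80).

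The TFIID subunits divided by sign, 8 of 14 positive and 6 negative, with a median log2 fold change of 0.25 that was -0.02 in the fit with litter as a block. Taf1, the largest subunit, with a pair of bromodomains that read acetylated histones, had 73.5, 73.1 and 78.9 CPM in controls and 80.7, 97.3 and 166 CPM in KO libraries. All KO values were above all controls, by a small margin in KO 1 and a large one in KO 3. The estimate was 0.61 on the log2 scale (SE 0.30; edgeR adjusted p = 0.794) and 0.26 without KO 3. Taf11 had 13.7, 17.6 and 21.4 CPM in controls and 17.1, 92.0 and 19.9 CPM in KO libraries. KO 2 was the only library outside the control range, and the log2 fold change of 1.29 (SE 0.66) became 0.07 without it.

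Taf13, the histone-fold partner of Taf11, had 9.01, 10.6 and 14.52 CPM in controls and 5.69, 6.75 and 6.97 CPM in KO libraries. All KO values were under all controls, with a log2 fold change of -0.82 (SE 0.55; edgeR adjusted p = 0.859). Taf12, the histone-fold partner of Taf4, had 25.9, 31.7 and 45.6 CPM against 17.4, 26.7 and 13.6 CPM. KO was the lower in each litter, but KO 2 lay above control 1, so the groups overlapped; the log2 estimate was -0.84 (SE 0.41; edgeR adjusted p = 0.788). Taf9, shared with SAGA, had 26.5, 30.9 and 23.5 CPM against 15.8, 16.2 and 25.1 CPM, with KO 3 within the controls and a log2 fold change of -0.51 (SE 0.37). Exons of Ak6 cover 73.8% of the exon bases of Taf9 on the same strand, so the counts of these genes are hard to tell apart. Taf10, also shared with SAGA, had 10.9, 7.54 and 12.4 CPM against 6.97, 9.73 and 9.28 CPM and a log2 fold change of -0.25 (SE 0.54; -0.09 without control 3), and 45.9% of its exon bases lie opposite Ilk. Taf5, the WD40-repeat scaffold of TFIID, had 24.4, 13.1 and 17.2 CPM against 26.4, 36.1 and 13.1 CPM, overlapping, with an estimate of 0.47 (SE 0.48) that became 0.12 without KO 2 and 0.79 without KO 3.

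The stretches upstream of Taf1 and Taf13 are shown because these are the TAF genes whose groups did not overlap, in opposite directions. They are chrX:101532485-101532733 and chr3:108571449-108571697, both on the plus strand of GRCm38.p6 from the RefSeq table, 5′ to 3′, and free of annotated exons. Capitals mark motif matches: in Taf1, 2 copies of the SP1 motif GGGCGG and 3 of the NFY motif CCAAT, 1 of them on the other strand; in Taf13, 1 CCAAT, 1 ETS motif CCGGAAG, 1 TATAAA and 1 GGGCGG.
Taf1: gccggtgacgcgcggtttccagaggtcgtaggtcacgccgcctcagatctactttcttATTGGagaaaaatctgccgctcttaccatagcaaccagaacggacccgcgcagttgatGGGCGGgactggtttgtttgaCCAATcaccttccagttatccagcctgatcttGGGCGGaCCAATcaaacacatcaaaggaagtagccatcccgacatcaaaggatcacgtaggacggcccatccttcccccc
Taf13: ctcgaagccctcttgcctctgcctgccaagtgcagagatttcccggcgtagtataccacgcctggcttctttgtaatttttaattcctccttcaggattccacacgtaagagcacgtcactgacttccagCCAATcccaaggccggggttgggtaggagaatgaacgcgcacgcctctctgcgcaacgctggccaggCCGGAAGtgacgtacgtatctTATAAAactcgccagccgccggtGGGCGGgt
Taf13 thus has the letters of a TATA box near its start and Taf1 has none in this stretch, while copies of GGGCGG and CCAAT occur in both.

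**Figure D3:**
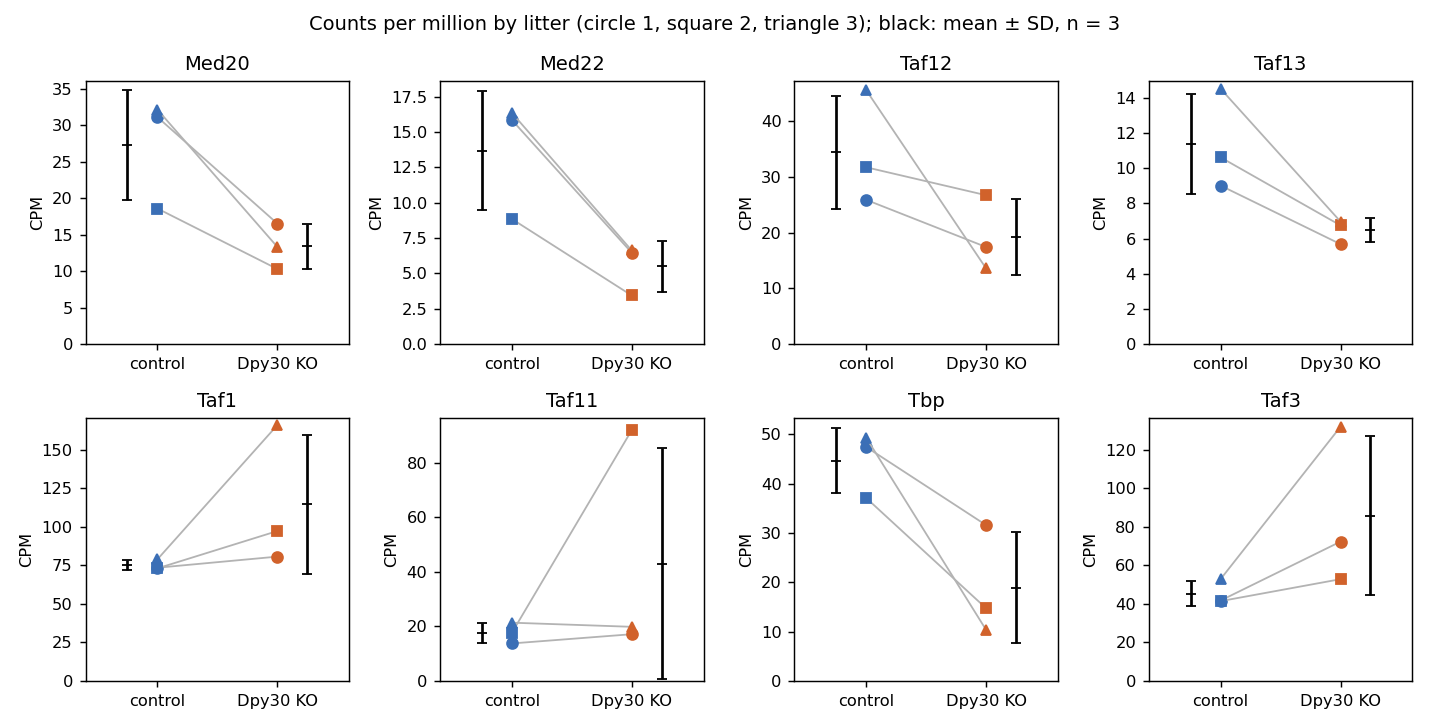
CPM of 6 members, and of Tbp and Taf3, in each library on linear axes from 0; grey lines join the control and KO sample of a litter, and black bars give the mean ± SD of 3 samples. Med20, Med22 and Taf13 are under the controls in every KO library, Taf1 is above them, and the high mean of Taf11 comes from KO 2 alone.

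All 4 SL1 genes had negative estimates, from -0.26 for Taf1a to -0.94 for Taf1c, and overlapping groups. Taf1c, the member of SL1 with the most negative estimate, had 6.35, 7.49 and 6.85 CPM in controls and 6.79, 3.28 and 0.685 CPM in KO libraries. KO 1 was within the tight control range, KO 3 was far under it, and the log2 fold change of -0.94 (SE 0.93) became -0.44 without KO 3 and -1.79 without KO 1. Taf1a had 5.21, 1.44 and 2.11 CPM against 2.67, 3.58 and 1.09 CPM, with no order between the groups. The SL1 sum per kilobase was 14.9, 10.5 and 8.89 CPM in controls and 9.49, 8.58 and 6.49 CPM in KO libraries; KO 1 exceeded control 3, so these overlapped too. Taf15 had 62.7, 59.1 and 39.5 CPM against 45.3, 35.1 and 48.3 CPM and a log2 fold change of -0.32 (SE 0.30; -0.20 without KO 2, -0.51 without control 3), with KO 1 and KO 3 inside the controls.

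Several Mediator and TFIID subunits have paralogs, and the share of a pair's counts per kilobase taken by the second member does not depend on library scaling. Taf5l and Taf6l belong to SAGA, so their shares set a SAGA subunit against a TFIID subunit. This share was compared in 7 pairs by a two-sided exact permutation test, which cannot go below 0.1 with 3 samples against 3. For Taf7l the share was 0 in every library, so the outcome of its test was fixed in advance. That pair still counted in the adjustment over the 7 pairs. Med13l took 10.7%, 14.6% and 17.4% of the Med13 and Med13l signal in controls and 20.2%, 16.2% and 20.5% in KO libraries. KO 2 lay inside the control range, for means of 14.3% ± 3.35 in controls and 18.95% ± 2.4 in KO (SD, n = 3 each; exact p = 0.2, adjusted over the 7 pairs 0.7). Taf9b took 12.9%, 19.6% and 15.6% of the Taf9 and Taf9b signal in controls and 22.2%, 35.6% and 17.5% in KO libraries. Only KO 3 fell within the controls, for means of 15.99% ± 3.36 in controls and 25.1% ± 9.37 in KO (SD, n = 3 each; exact p = 0.2, adjusted 0.7), the Taf9 side of this ratio carrying the overlap with Ak6.

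Med12l took 23.3%, 5.80% and 10.8% of its pair in controls and 26.9%, 8.91% and 14.99% in KO libraries. The litters differed more than the genotypes, and KO exceeded control within litters 1, 2 and 3 by 3.57, 3.12 and 4.19 percentage points. Taf4b, a TFIID subunit best known from the gonads, took 29.96%, 15.7% and 11.5% of the Taf4a and Taf4b signal in controls and 41.3%, 24.3% and 13.4% in KO libraries, again a little more in KO in every litter. Across the groups the Med12l and Taf4b shares overlapped widely (exact p = 0.6 for either, adjusted 0.98). With KO 1 left out and its litter mate, control 1, kept, the group differences were -1.36 and -0.24 percentage points, while the differences within litters 2 and 3 were 3.12 and 4.19 points for Med12l and 8.56 and 1.83 points for Taf4b. Within litters the share was higher in KO in 3 of 3 litters for Med12l, Med13l, Taf4b and Taf9b; a two-sided exact sign-flip test gives 0.25 for each, the smallest p that 3 litters allow. The SAGA paralogs showed no such order: Taf5l moved by 1.24, -40.4 and 10.8 points within litters against Taf5, and Taf6l by -6.07, 15.3 and -9.40 points against Taf6, 26.5% of whose exon bases lie opposite Ap4m1. For Taf7l the 0 counts allow at most 0.295% to 0.932% of the counts of the Taf7 pair per library, taking 3 counts as the floor and counting error alone.

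**Figure D4:**
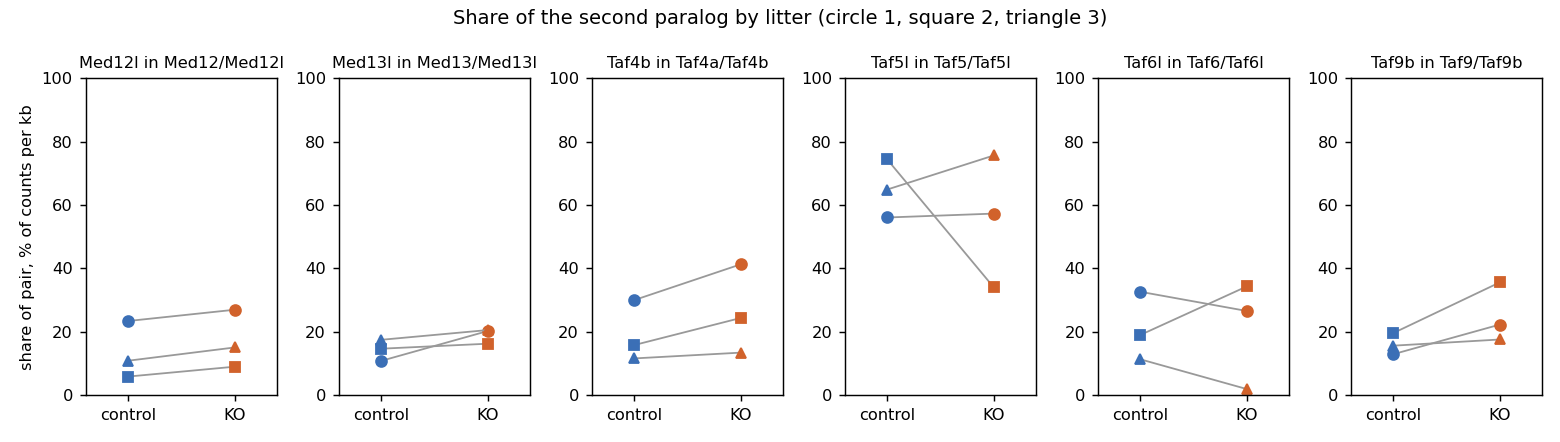
Share of each pair's counts per kilobase taken by the second member (percent, 0 to 100), with a grey line for each litter from its control to its KO sample. Lines for Med12l, Med13l, Taf4b and Taf9b slope upward in 3 of 3 litters, and those for Taf5l and Taf6l cross.

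Levels of different genes were compared per kilobase of exon. Mediator genes spanned a wide range around shared complex membership. Med1 was the highest at 24.5 ± 7.40 CPM per kilobase (SD over 6 libraries), followed by Med13 at 22.1 ± 2.41, and these did not differ beyond their spread. Med14 came next at 13.6 ± 1.74. Med27 (1.42 ± 0.347), Med25 (1.53 ± 0.430) and Med31 (1.75 ± 1.83) were the lowest, in an order that lies within their spread. Among TAF genes Taf15 was highest at 16.6 ± 3.70, followed by Taf1 at 11.1 ± 4.20 and Taf9 at 10.8 ± 2.82, and Taf1a (1.11 ± 0.633), Taf6l (1.203 ± 0.596) and Taf4b (1.496 ± 0.907) were lowest. Several of these ranks depend on the length used. With the longest transcript in place of all exons, the level of Med15 moved the most, from 4.62 to 15.5 CPM per kilobase. Med1, Med13 and Med14 were again the highest Mediator genes, but the lowest were then Med28 (2.12), Med7 (2.18) and Med12l (2.36), with Med27 at 2.78 and Med25 at 3.16. Taf15 was again the highest TAF gene at 23.4, followed by Taf2 (12.7) and Taf5l (12.02) rather than Taf1 (11.8) and Taf9 (11.7), and the lowest were Taf4b (1.496), Taf1c (1.51) and Taf1a (1.82). Summed over all 29 genes, Mediator came to 151, 162 and 164 CPM per kilobase in controls and 160, 165 and 164 in KO libraries, differing by less than the control spread. The 21 TAF genes summed to 117, 121 and 113 in controls and 97.2, 128 and 108 in KO libraries, with KO on either side of the controls.

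**Figure D5:**
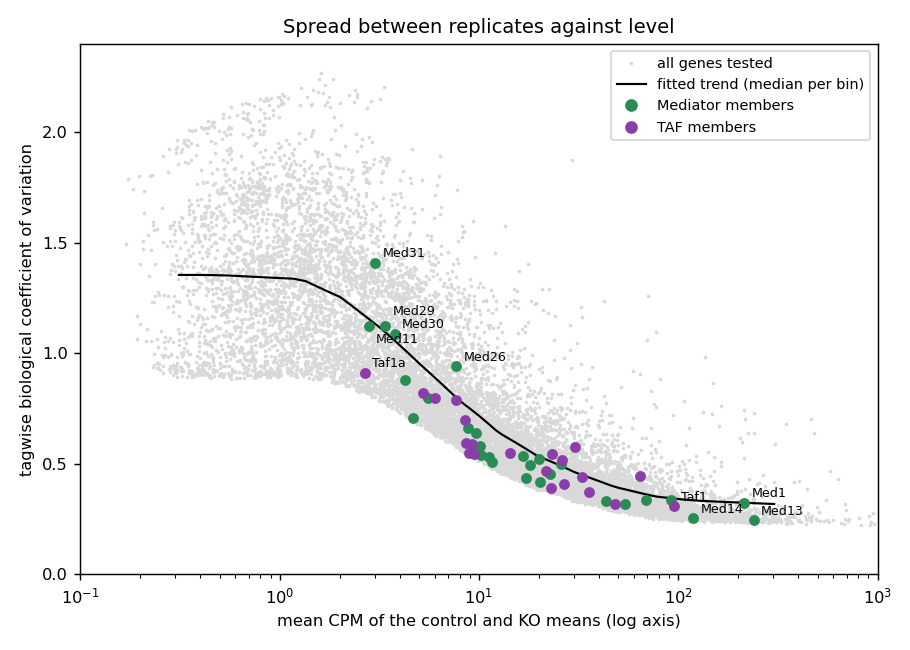
Biological coefficient of variation between replicates (vertical) against mean CPM (log axis) for all genes tested (grey), Mediator (green) and TAF genes (purple), with the fitted trend as a line. Of 50 members, 41 lie under the trend, and Med31, Med26 and Med29 are among those above it.

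The spread between replicates is described here without a test. The median biological coefficient of variation was 0.529 for Mediator, 0.543 for TAF genes and 0.652 for all genes, and 82% of members were below the trend at their level beside 66.4% of all genes. The lowest values were those of Med13 (0.244) and Med14 (0.254) and the highest that of Med31 (1.41), which had 36, 131 and 181 counts in controls and 27, 312 and 0 counts in KO libraries. Of 48 members with a median of at least 100 counts, Med29 and Med30 had 3 counts each in KO 2, and Med11 and Med26 had 3 and 9 counts in KO 3. These genes were singled out after their values were seen. No member fell under 10 counts in this way in the controls or KO 1, and among all 9863 genes with such a median the share under 10 counts was 0.172% to 0.679% in controls and 0.223%, 2.29% and 3.73% in KO 1 to 3. Of the 6 libraries, KO 3 held the lowest value for 19 members and KO 2 for 12. KO 3 was lowest for 38% of members beside 29.1% of all genes and highest for 14% beside 25.6%. KO 2 was lowest for 24% beside 23.1% and highest for 34% beside 18.6%.

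The members on the X chromosome, Med12, Med14, Taf1 and Taf9b, all had positive estimates, with a median of 0.18 beside -0.06 over the 511 X-linked genes tested. Xist, the RNA that silences an X chromosome in female cells, had 497, 488 and 182 CPM in controls and 64.6, 126 and 163 CPM in KO libraries, every KO library under every control. The sex of the embryos is not given in the sources used here, and the part of Xist in the values of these members was not tested.

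Of 48 further genes of the initiation machinery, 46 were tested, and none passed an adjusted p of 0.05 in edgeR or DESeq2. At an unadjusted p under 0.05 there were 1 higher and 2 lower in KO, beside 4.26% and 2.24% of all genes. Tbp, the DNA-binding core of TFIID, had 47.4, 37.1 and 49.3 CPM in controls and 31.6, 14.7 and 10.3 CPM in KO libraries. It was lower in every KO library than in any control, with a log2 fold change of -1.24 (SE 0.46; edgeR adjusted p = 0.729). Taf3 had 41.7, 41.4 and 52.9 CPM against 72.3, 52.8 and 132 CPM. KO 2 fell just short of control 3, so the groups overlapped, and the log2 estimate was 0.92 (SE 0.36; edgeR adjusted p = 0.753) and 0.48 without KO 3. Gtf2h4, a subunit of TFIIH, had 6.91, 3.96 and 5.42 CPM against 1.18, 0.606 and 0.971 CPM, well separated groups with a log2 fold change of -2.56 (SE 0.93; edgeR adjusted p = 0.729). The 17 general factors of RNA polymerase II had a median of -0.19 (7 positive, 10 negative), the 12 polymerase subunits -0.18 (5 and 7) and the 11 tested SAGA genes -0.21 (4 and 7), near the median of the TAF genes. Polr2a, the largest subunit of the polymerase, was at 181 CPM in controls and 189 CPM in KO libraries on average, with a log2 fold change of 0.06 (SE 0.21).

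The promoter windows of the members, 300 bases from 250 before to 50 after the start, were matched in the RefSeq table for 43 of 50. A ratio of observed to expected CpG over 0.6 was found in 39 of 43 (90.7%), in 72.4% of tested genes with a window and in 36.4% of all 27025 windows. Exact motifs were searched on both strands. The ETS motif CCGGAAG occurred in 14 of 43 members (32.6%) beside 18.9% of tested genes, GATGGCG (YY1) in 16.3% beside 6.97%, TATAAA in 16.3% beside 6.86%, GCATGCG (NRF1) in 11.6% beside 6.76%, and CACGTG (E-box) in 16.3% beside 10.3%. GGGCGG (SP1) was in 69.8% and 64.3%, CCAAT (NFY) in 41.9% and 38.7%, and TGACGTC (CREB) in 4.65% and 5.65%. Over all windows in the table, the shares were 9.12% for CCGGAAG, 3.66% for GATGGCG and 14.2% for TATAAA. A match is a string of letters in the reference and does not show that a factor binds there.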

How the data were processed

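RNA was sequenced from sorted HSCs of 3 control and 3 Dpy30 KO samples, grouped by the genotype label and numbered by litter. The authors deposited unnormalized whole-number counts per gene symbol, 1 list per sample. The submitters' processing notes name build mm10, CASAVA 1.8.4, TopHat2, Picard 1.126, HTSeq 0.6.0, DESeq 3.0 and bedtools 2.17.0, without roles. Strandedness and the gene annotation are not given in the sources used here, so overlapping and antisense genes cannot be told apart, and reads of near-identical copies may be lost. Per the deposited files, reads given to no gene were 41% to 51% of each list and were left out. No molecular identifiers are described, so floors (3 counts, 0.068 to 0.104 CPM per library) cover counting error only.

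All genes kept by filterByExpr (13646) were fitted with edgeR 4.0.16 (R 4.3.3, TMM, quasi-likelihood F test, no litter term) with Benjamini-Hochberg adjustment over all of them, threshold 0.05. The SE of a fold change was derived from its F statistic. Levels per kilobase used the union of GENCODE vM21 exons. DESeq2 1.42.0, limma 3.58.1 (voom), other scalings and filters, the litter block and each sample left out were alternatives. The labels give the litter of every sample, which pairs them; deviations of litter mates from their group means correlated at -0.022, -0.075 and 0.003. P-values measure the spread between these samples only. The fit was run on simulated counts with larger changes than any member's estimate. Their spread was less than the common biological coefficient of variation of 0.817 in these data. That run therefore does not show how the fit performs at the changes and spread found here.

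The members and all gene lists were chosen with earlier results of these data known. Named are the 8 Mediator and 8 TAF genes of smallest p, paralog pairs, the 3 highest and 3 lowest by level, Med1, Med12, Med14, Taf1 and Taf10, and other initiation genes with p under 0.05. Others named were chosen after their values were seen.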

Additional observations from a re-analysis of the deposited data

How the results depend on the processing

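No Mediator or TAF gene passed the threshold under any alternative run, including each sample left out and the litter block, which changed no call. The median log2 fold change of all genes was -0.10 with upper-quartile scaling, 0.23 with library size only, -0.065 with no filter on low counts, -0.14 with limma-voom and -0.12 with the replicate block, and -0.058 to 0.037 with a sample left out. The median of the TAF genes was 0.077 with library size only and -0.34 to 0.0796 with a sample left out (0.0796 without control 1, -0.02 without KO 3), so its sign is not stable. That of the Mediator genes was -0.054 with upper-quartile scaling, -0.0074 with the replicate block and -0.0295 without KO 2, so its sign changed as well. Over all genes, calls numbered 138 with DESeq2, 1 with no filter and 1 with at least 10 counts in every sample. Some named genes reversed in sign under another setting. With upper-quartile scaling Med1 was at -0.14, Med12 at -0.054, Med14 at -0.0069 and Med31 at -0.0097. With library size only Med13 was at 0.13, Med27 at 0.013, Taf1a at 0.077, Taf5l at 0.12 and Taf6l at 0.24. With at least 10 counts in every sample Med1 was at -0.0051; with limma-voom Med1 was at -0.092 and Med31 at -2.65; with the replicate block Med1 was at -0.078, Med31 at -1.52 and Taf4b at -0.086. With a sample left out, signs changed for Med1 (-0.41 to 0.25), Med12 (-0.21 to 0.29), Med13 (-0.18 to 0.0401), Med14 (-0.0295 to 0.23), Med25 (-0.10 to 0.46), Med31 (-3.10 to 0.66), Taf1a (-0.64 to 0.46), Taf4a (-1.28 to 0.0163), Taf4b (-0.12 to 0.91), Taf5l (-0.30 to 0.18), Taf6 (-0.32 to 0.78), Taf6l (-0.45 to 0.45), Taf7 (-0.47 to 0.56) and Taf9b (-0.0937 to 0.60). Counts of separated members without each sample and the head module median were added after seeing the data. Depth limits genes with few counts, such as Med31.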
